A study of Mus musculus with 6 samples.

Results

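The genes described here are 9 regulators that leukaemias driven by MLL fusions use to keep dividing without maturing, leaving aside the Hox and MEF2 families: Myb, Runx2, Mecom, Zfp521, Eya1, Cdk6, Jmjd1c, Cbx5 and Hmgb3. They were chosen by name, with earlier results of these data known. All 9 are among the 24015 genes listed in the counts of 6 mouse RNA sequencing libraries. All 9 also passed the filter on low counts, with which 12729 genes were tested. Each library holds RNA of sorted leukaemic stem and progenitor cells from mice that had developed acute myeloid leukaemia. The leukaemia carried the MLL-AF9 fusion, introduced into bone marrow progenitors that lacked lineage markers and expressed Kit. These progenitors came from NIKERT2 mice, which hold a transgene for the kinase NIK in the Rosa locus behind a loxP-flanked stop, and a tamoxifen-dependent CreERT2 recombinase, also from Rosa. The LSPC group has 3 libraries from mice without tamoxifen and the LSPCT group has 3 from tamoxifen-treated mice, so both groups share the fusion, the transgene and the recombinase, and only LSPCT received the drug that removes the stop. Tamoxifen, active Cre and NIK therefore cannot be told apart. Whether replicates were separate mice is not in the labels. The p-values therefore rest on the spread among these libraries, which may be technical.

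MLL fusions hold a set of progenitor genes open in committed myeloid cells, and the leukaemia depends on the products of that set. MYB is a DNA-binding activator of progenitor genes, and CDK6 is the kinase that, with a D-type cyclin, inactivates the retinoblastoma protein at the start of the cell cycle. JMJD1C and CBX5 are both linked to the histone mark H3K9 methylation. JMJD1C belongs to the KDM3 demethylase family, and CBX5 (HP1 alpha) reads the mark in silent chromatin. HMGB3 is an HMG-box DNA-bending protein of stem and progenitor cells. RUNX2, MECOM (EVI1), ZFP521 and EYA1 are transcription factors or cofactors, and the last of these works with DNA-binding homeodomain proteins.

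Levels are in CPM, counts per 1000000 counts of the scaled library. Libraries held 19999071 to 26773176 counts each. A gene with no count could still be present at up to 0.112 to 0.150 CPM (3 counts, for counting error only). Map3k14, the NIK gene itself, stood at 24.2 to 28.8 CPM in LSPC and at 129.9 to 190.6 CPM in LSPCT, so its level matched each label. The counts do not separate transgene from endogenous transcripts. The pan-leukocyte gene Ptprc (261 to 403 CPM), the progenitor genes Kit (117 to 194 CPM) and Cd34 (149.6 to 264 CPM) and the myeloid integrin gene Itgam (112 to 327 CPM) were present in all 6 libraries. Of 11 tested markers of the sorted cells, 2 rose and 2 fell, where 17.2% of all tested genes passed. Fcgr2b (log2 0.63, edgeR adjusted p = 0.00150) and Csf1r (0.97, 0.0162) rose, and Fcgr3 (-0.49, 0.00518) and Flt3 (-1.20, 0.00153) fell. Csf1r missed the threshold without LSPC replicate 1 or 2 or LSPCT replicate 2 or 3 (0.0538 to 0.0644). Ly6a was at 2.74 to 7.71 CPM. One library stood apart. LSPCT replicate 1 was at 48.2 on the second principal component (17.2% of the variance), against -25.8 and -18.6 for the other LSPCT libraries. Without this library 25.1% of all tested genes passed, against 17.2% with all 6 libraries. The summed level of 12 macrophage markers was 161 to 185 CPM in LSPC, 1597 CPM in LSPCT replicate 1 and 650.4 and 708 CPM in LSPCT replicates 2 and 3. In every library most of the sum was Vcam1 (75.5 to 82.7 CPM in LSPC, 456 to 930 CPM in LSPCT) and Emr1 (69.6 to 92.3 and 142 to 206 CPM). C1qa, for example, was at 92.6, 8.03 and 14.3 CPM in LSPCT replicates 1 to 3. Of the 12 markers 10 of 11 tested rose and none fell, where 8.96% and 8.24% of all tested genes did. All 12 were highest in LSPCT replicate 1. The number that rose was 9 without LSPCT replicate 1, 4 without LSPC replicate 1 or 2, 6 without LSPC replicate 3, 8 without LSPCT replicate 3 and 3 with limma voom. Neutrophil markers followed no group, with a sum of 44.5 CPM in LSPC replicate 2, 318 and 2184 CPM in the other LSPC libraries and 226 to 673 CPM in LSPCT. The part of such cells in the results was not tested. In bulk RNA, fewer cells of a type and less RNA per cell cannot be told apart.

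With tamoxifen, 1 of the 9 regulators fell, Runx2, and 1 rose, Jmjd1c. Runx2 was 1.95-fold lower and Jmjd1c 1.32-fold higher in LSPCT. These were 2 of 9 calls, where 17.2% of all tested genes passed (8.96% rose and 8.24% fell; edgeR quasi-likelihood test, adjusted p under 0.05 over all genes, two-sided). The groups did not overlap for Runx2, Jmjd1c and Cdk6, 3 of 9, against 37.7% of all tested genes. One of them was higher in LSPCT and 2 were lower, where 18.1% and 19.6% of all tested genes were. The median log2 fold change was -0.06 over the 9 regulators and -0.003 over all tested genes, and the median size of the change was 0.27 against 0.23.

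**Figure D1:**
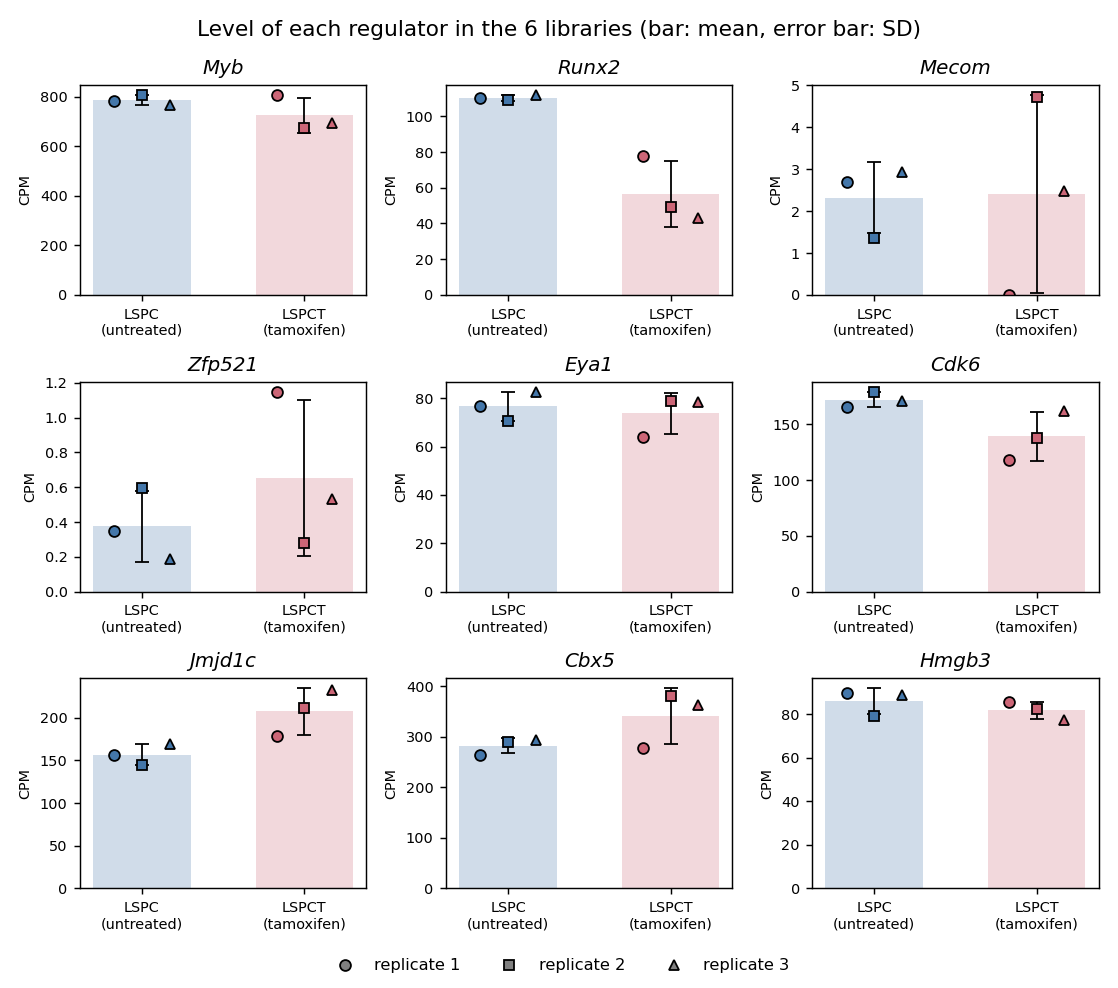
Level of each of the 9 regulators in CPM (linear axis from 0) in the 3 LSPC (blue) and 3 LSPCT (red) libraries; bars give the mean, error bars the SD and symbols the replicate. Runx2 lies at 42.8 to 77.6 CPM in LSPCT, below all LSPC libraries, and Mecom is at 0 in LSPCT replicate 1.

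Per kilobase of exon, Myb was the most abundant of the 9 in both groups, at 87.8 ± 2.33 CPM per kb in LSPC and 81.1 ± 7.97 in LSPCT (SD, n = 3). Hmgb3 (38.5 ± 2.63) and Cbx5 (31.4 ± 1.76 CPM per kb) came next in LSPC. Runx2 (12.5 ± 0.170) and Cdk6 (12.3 ± 0.490 CPM per kb) were followed by Eya1 (9.83 ± 0.775) and Jmjd1c (8.80 ± 0.703 CPM per kb). Within the Runx2 and Cdk6 pair and within the Eya1 and Jmjd1c pair the LSPC libraries overlapped. Mecom (0.187 ± 0.0682) and Zfp521 (0.0534 ± 0.0292 CPM per kb) were close to silent. In LSPCT Runx2 stood at 6.40 CPM per kb (4.84 to 8.78 in the 3 libraries), rank 7 of the 9 in place of rank 4, and Jmjd1c at 11.6 ± 1.53, rank 4 in place of rank 7. There Myb was clear of all others, Cbx5 overlapped Hmgb3, each of Jmjd1c, Cdk6, Eya1 and Runx2 overlapped the next in that order, and Mecom overlapped Zfp521. Lengths are those of GENCODE M21 exons, a later build than that of the counts.

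**Figure D2:**
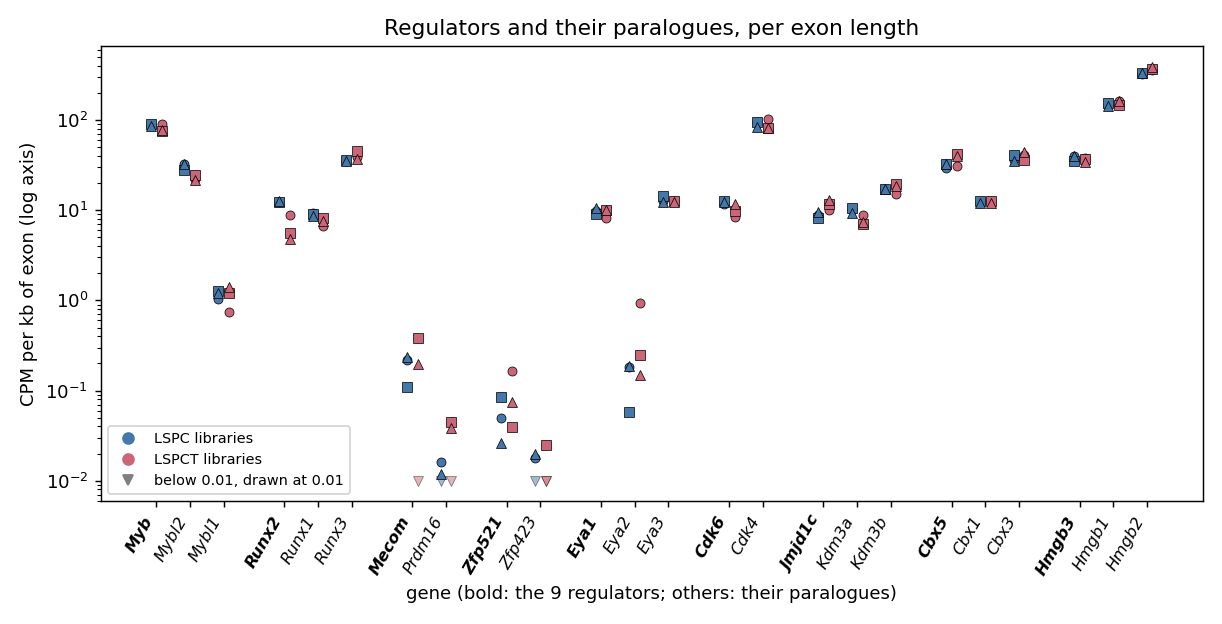
CPM per kb of exon (log axis) of the 9 regulators (bold) and their paralogues in each LSPC (blue) and LSPCT (red) library, with circles, squares and triangles for replicates 1, 2 and 3. Myb exceeds Mybl2 and Mybl1 in every library, whereas Hmgb3 lies below Hmgb1 and Hmgb2, and values below 0.01 are drawn at 0.01.

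Runx2 encodes a RUNX family factor that is best known from bone formation and that binds DNA together with CBFB. Its level was 110.1, 109 and 112 CPM in LSPC replicates 1 to 3 and 77.6, 49.2 and 42.8 CPM in LSPCT replicates 1 to 3. All 3 LSPCT libraries lay below all LSPC libraries, and LSPCT replicate 1 was the nearest of them to LSPC. The log2 fold change was -0.97 with a standard error (SE) of 0.20 (edgeR adjusted p = 0.0144). LSPC libraries differed by a coefficient of variation of 1.36%, no more than counting alone gives (1.96%), whereas the LSPCT libraries differed by 32.8%. Without LSPCT replicate 1, the library with the highest macrophage marker sum, the log2 fold change was -1.26 (edgeR adjusted p = 5.43e-05), and it missed the threshold without LSPC replicate 1 (-0.96, edgeR adjusted p = 0.0563) or LSPCT replicate 2 (-0.88, edgeR adjusted p = 0.0530). Of 13 osteoblast, stromal and endothelial markers, 5 were tested. Of these Col1a1 and Col1a2 rose and Pecam1 fell, where 17.2% of all tested genes passed. Col1a1 missed the threshold without LSPC replicate 1 (edgeR adjusted p = 0.0770) or LSPCT replicate 3 (0.0505). The sum of the 13 markers was 135 to 176 CPM in LSPC and 70.6 to 119 CPM in LSPCT. Most of it was Pecam1 (125 to 162 and 53.0 to 82.2 CPM), so the sum followed that gene and not the other markers. From LSPC to LSPCT the mean went from 2.68 to 9.06 CPM for Col1a1 and from 3.21 to 11.2 CPM for Col1a2. Cxcl12 and Lepr did not pass. The osteoblast genes Sp7, Ibsp and Bglap2 had no count in any library, whereas Alpl had 1 to 8 counts per library and Bglap at most 2. The endothelial genes Cdh5 (0, 0 and 1 counts in LSPC, 21, 8 and 3 in LSPCT) and Kdr (3, 2 and 0, then 7, 10 and 6) were not tested. Emcn, also not tested, had 3 counts in LSPC replicate 2 only. The antisense gene Runx2os1 overlaps 5.87% of the Runx2 exon length in GENCODE, and if reads were counted without strand its reads would be counted with Runx2.

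RefSeq lists 1 start for Runx2 in the promoter table, and its upstream sequence is shown because Runx2 was the regulator with the clearest change and because it holds a match to the RUNX core motif TGTGGT, which reads ACCACA on the strand shown (in capitals), 80 bases upstream of the start. The sequence covers the 250 bases before the start, 5′ to 3′, on the minus strand of chr17:44814628-44814877 in GRCm38.p6.

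Runx2: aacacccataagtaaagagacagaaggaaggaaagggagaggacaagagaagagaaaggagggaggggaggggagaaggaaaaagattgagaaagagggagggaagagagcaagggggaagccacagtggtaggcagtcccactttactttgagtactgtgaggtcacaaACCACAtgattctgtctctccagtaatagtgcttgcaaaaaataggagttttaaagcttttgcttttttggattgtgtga

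Of 32851 promoters in the table, 14.045% hold TGTGGT on either strand within the same 250 bases. The window has no CpG, against a median of 6 in all promoters, and 44.8% GC against 52.4%. A match is a description of the sequence, and the counts do not tell which start was used.

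The other RUNX genes did not pass. Runx1, the master factor of definitive blood stem cells, was at 111, 109 and 104 CPM in LSPC and 81.0, 98.7 and 91.5 CPM in LSPCT (log2 -0.26, 95% interval -0.48 to -0.04, edgeR adjusted p = 0.107). Runx3 was at 177, 179 and 176 CPM in LSPC and 195, 227 and 185 CPM in LSPCT (log2 0.19, 95% interval -0.03 to 0.41, edgeR adjusted p = 0.218). Runx1 thus lay lower in every LSPCT library and Runx3 higher, but neither difference passed. The groups did not overlap for 37.7% of all tested genes. Of 5 tested genes among the RUNX partners (Runx1, Runx3, Cbfb, Cbfa2t2 and Cbfa2t3), none passed in edgeR at adjusted p under 0.05. Of all tested genes 17.2% did.

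Myb, needed for self-renewal of MLL-AF9 cells, was the regulator with the most counts, 14533 to 20601 per library. It stood at 783, 806 and 765 CPM in LSPC and at 806, 675 and 692 CPM in LSPCT. LSPCT replicate 1 lay within the LSPC range, and LSPCT replicates 2 and 3 lay below it. The log2 fold change of -0.12 (95% interval -0.32 to 0.09) was short of the threshold (edgeR adjusted p = 0.419). With LSPCT replicate 1 left out it was -0.19 (edgeR adjusted p = 0.0768). The antisense model Gm26577 overlaps 6.26% of the Myb exon length and is not among the genes counted.

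Among 9 tested MYB relatives and coactivators, 1 fell and none rose, where 17.2% of all tested genes passed. Mybl2 (B-MYB), a relative that drives mitotic genes, averaged 143 ± 13.4 CPM in LSPC and 106 ± 6.76 CPM in LSPCT (SD, n = 3). The log2 fold change was -0.44 with an SE of 0.10 (edgeR adjusted p = 0.0202). This call was lost without LSPC replicate 1, LSPC replicate 3 or LSPCT replicate 3 (edgeR adjusted p 0.101, 0.0752 and 0.0683). Mybl1 was low and did not pass (log2 -0.06). The acetyltransferase genes Crebbp (log2 -0.14) and Ep300 (-0.22) and the menin gene Men1 (-0.18) did not pass either.

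Of 12 tested genes known as MYB targets, 4 fell and none rose, where 8.24% and 8.96% of all tested genes did. The median log2 fold change of the 12 was -0.05. The 4 that fell were 3 genes of neutrophil primary granule proteins and Bcl2, an anti-apoptotic gene. Prtn3, the proteinase 3 gene, stood at 2093, 1783 and 1742 CPM in LSPC and 982, 821 and 558 CPM in LSPCT (log2 -1.25, SE 0.19, edgeR adjusted p = 0.00373). Mpo (log2 -4.30), Elane (-1.58) and Bcl2 (-1.72) also passed. The progenitor receptor gene Kit (log2 0.25, edgeR adjusted p = 0.330), Cd34 (0.40, edgeR adjusted p = 0.0921), Myc (0.16, edgeR adjusted p = 0.372) and the mitotic cyclin gene Ccnb1 (0.42, edgeR adjusted p = 0.0519) did not pass. Ccnb1 lay at the threshold. It passed without LSPCT replicate 1 (0.53, edgeR adjusted p = 0.00805), with RLE (0.0496) or upper quartile factors (0.0366), with the stricter filter (0.0451) and in DESeq2 (adjusted p = 0.00810), but not without any other library (edgeR adjusted p 0.0853 to 0.193). Cd34 passed without LSPCT replicate 1 (0.49, edgeR adjusted p = 0.0357) and in DESeq2 (adjusted p = 0.0238).

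Mecom (EVI1), a zinc-finger factor of blood stem cells and of a poor-prognosis form of myeloid leukaemia, was low and uneven. Its counts were 54, 32 and 79 in LSPC and 0, 102 and 56 in LSPCT, or 2.68, 1.36 and 2.93 CPM and 0, 4.74 and 2.48 CPM. LSPCT replicate 1 had no Mecom count, which allows up to 0.150 CPM, whereas LSPCT replicate 2 was the highest of the 6 libraries. The fitted log2 difference was 0.05 with a 95% interval of -2.28 to 2.38 (edgeR adjusted p = 0.979), so no change was detectable at this spread. Without LSPCT replicate 1 it was 0.64 (edgeR adjusted p = 0.304). The coefficient of variation was 98.5% in LSPCT and 36.5% in LSPC, where counting alone gives 13.8% and 13.5%.

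Of 9 tested corepressors and known targets of MECOM, 2 rose and 4 fell, where 8.96% and 8.24% of all tested genes did. The median log2 fold change of the 9 was 0.25, and the same numbers passed without LSPCT replicate 1. Gata2, a stem cell factor activated by EVI1, stood at 35.5, 34.2 and 35.4 CPM in LSPC and 73.4, 80.2 and 74.7 CPM in LSPCT (log2 1.12, SE 0.08, edgeR adjusted p = 0.000123). Gpr56, an adhesion receptor gene of leukaemia stem cells, rose from 114 ± 4.23 to 211 ± 44.3 CPM (SD, n = 3; edgeR adjusted p = 0.00486). Both groups of libraries were apart for these genes, in LSPCT replicate 1 as well, as they were for 37.7% of all tested genes. The corepressor gene Ctbp2 went from 68.8, 70.7 and 66.5 CPM to 53.8, 52.5 and 52.2 CPM (log2 -0.38, SE 0.08, edgeR adjusted p = 0.0135). Zbtb16 (log2 -1.14), the corepressor gene Ctbp1 (-0.37) and the myeloid factor gene Cebpa (-0.43) fell too. Ctbp1 and Cebpa were outside the naming rule and were named after their values were seen. Ctbp2 missed the threshold without LSPC replicate 1 (edgeR adjusted p = 0.0661) or 2 (0.0606). Ctbp1 missed it without any LSPC library or LSPCT replicate 3 (0.0528 to 0.101), Cebpa without LSPC replicate 1 or 2 or LSPCT replicate 3 (0.108 to 0.138), and Zbtb16 without LSPC replicate 1 (0.0503) or 2 (0.0590). Prdm16, the paralogue of Mecom, was not tested and reached at most 0.418 CPM.

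Zfp521, a zinc-finger cofactor of stem cells that antagonises the B cell factor EBF1, was low but above the limit of 3 counts in every library. Its counts were 7, 14 and 5 in LSPC and 23, 6 and 12 in LSPCT, or 0.348, 0.593 and 0.186 CPM and 1.15, 0.279 and 0.531 CPM. The groups overlapped, and the highest value was in LSPCT replicate 1, the library with no Mecom count. The log2 difference of 0.79 (95% interval -0.75 to 2.32) was short of the threshold (edgeR adjusted p = 0.469). It was 0.13 without LSPCT replicate 1. None of 5 related genes (its paralogue Zfp423 and Ebf1 to Ebf4) had enough counts to be tested, and their sum was 0.0885 to 0.650 CPM per library.

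**Figure D3:**
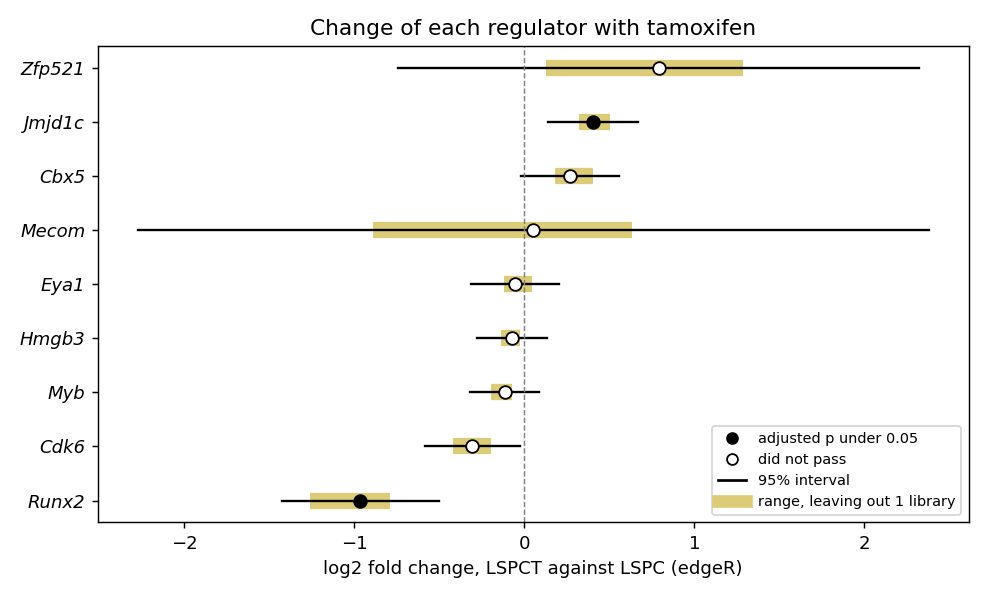
Log2 fold change (LSPCT against LSPC) of each regulator with its 95% interval (line) and the range when 1 library is left out (band); filled points passed at an edgeR adjusted p under 0.05. Runx2 at -0.97 and Jmjd1c at 0.40 passed, and the intervals of Mecom and Zfp521 are the widest.

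Eya1, a transcriptional cofactor and phosphatase that supports MLL-fusion transformation, did not pass. It stood at 76.8, 70.7 and 82.8 CPM in LSPC and 63.9, 79.1 and 78.5 CPM in LSPCT. LSPCT replicate 1 was the lowest of the 6 libraries and the others intermingled. The log2 difference was -0.06 with a 95% interval of -0.31 to 0.20 (edgeR adjusted p = 0.776), and it was 0.04 without LSPCT replicate 1 and 0.01 without LSPC replicate 3.

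Of 5 tested relatives and DNA-binding partners of EYA1, 1 rose and none fell, where 17.2% of all tested genes passed. The median log2 fold change of the 5 was 0.04. The gene that rose was Six4, which encodes a homeodomain factor that can recruit EYA proteins to DNA. Six4 had 0, 3 and 1 counts in LSPC and 16, 19 and 22 in LSPCT (edgeR adjusted p = 0.00965), a low level of at most 0.974 CPM. All LSPCT libraries stood above all LSPC libraries, as for 18.1% of all tested genes. LSPCT replicate 1 did not stand apart, and Six4 passed with each library left out in turn (highest edgeR adjusted p = 0.0456). Eya3 was at 70.2 to 80.7 CPM in all 6 libraries (log2 -0.06, 95% interval -0.26 to 0.15). Eya2 was highest in LSPCT replicate 1, at 2.80 CPM, and did not pass, and Eya4 had 1 count in all.

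Cdk6, the gene of a D-cyclin kinase on which MLL-rearranged cells depend, lay lower in LSPCT without passing the test. It stood at 166, 179 and 171 CPM in LSPC and 118, 137 and 162 CPM in LSPCT. The groups did not overlap, but LSPCT replicate 3 came close to LSPC replicate 1. The mean was 172 ± 6.86 against 139 ± 22.1 CPM (SD, n = 3). The log2 fold change was -0.30 with a 95% interval of -0.58 to -0.03 (unadjusted p = 0.0347, edgeR adjusted p = 0.123). Without LSPCT replicate 3 it was -0.42 (edgeR adjusted p = 0.0460), and without LSPCT replicate 1, which was the lowest, -0.19 (edgeR adjusted p = 0.193).

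Of 15 tested partners, inhibitors and substrates of CDK6, 1 rose and none fell, where 17.2% of all tested genes passed. Ccnd2, a D-type cyclin gene, was at 16.1, 11.3 and 17.2 CPM in LSPC and 43.4, 24.2 and 28.8 CPM in LSPCT (log2 1.11, SE 0.24, edgeR adjusted p = 0.0172). It was highest in LSPCT replicate 1, and the call was lost without LSPC replicate 1 (edgeR adjusted p = 0.0586) or 2 (0.0587). Ccnd3, the most abundant D cyclin by count, did not pass (log2 -0.31, edgeR adjusted p = 0.172) except without LSPC replicate 2 (-0.45, edgeR adjusted p = 0.0465), nor did Ccnd1 (0.57, edgeR adjusted p = 0.157). Without LSPCT replicate 1, Ccnd1 (0.82, edgeR adjusted p = 0.00665) and the inhibitor gene Cdkn2b (1.56, edgeR adjusted p = 0.0367) passed beside Ccnd2. In that fit 25.1% of all tested genes passed. The sister kinase gene Cdk4 stood at 309, 306 and 274 CPM in LSPC and 331, 265 and 263 CPM in LSPCT (log2 -0.05, 95% interval -0.31 to 0.21). Rb1, the retinoblastoma gene, differed by 0.02 (95% interval -0.22 to 0.27).

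**Figure D4:**
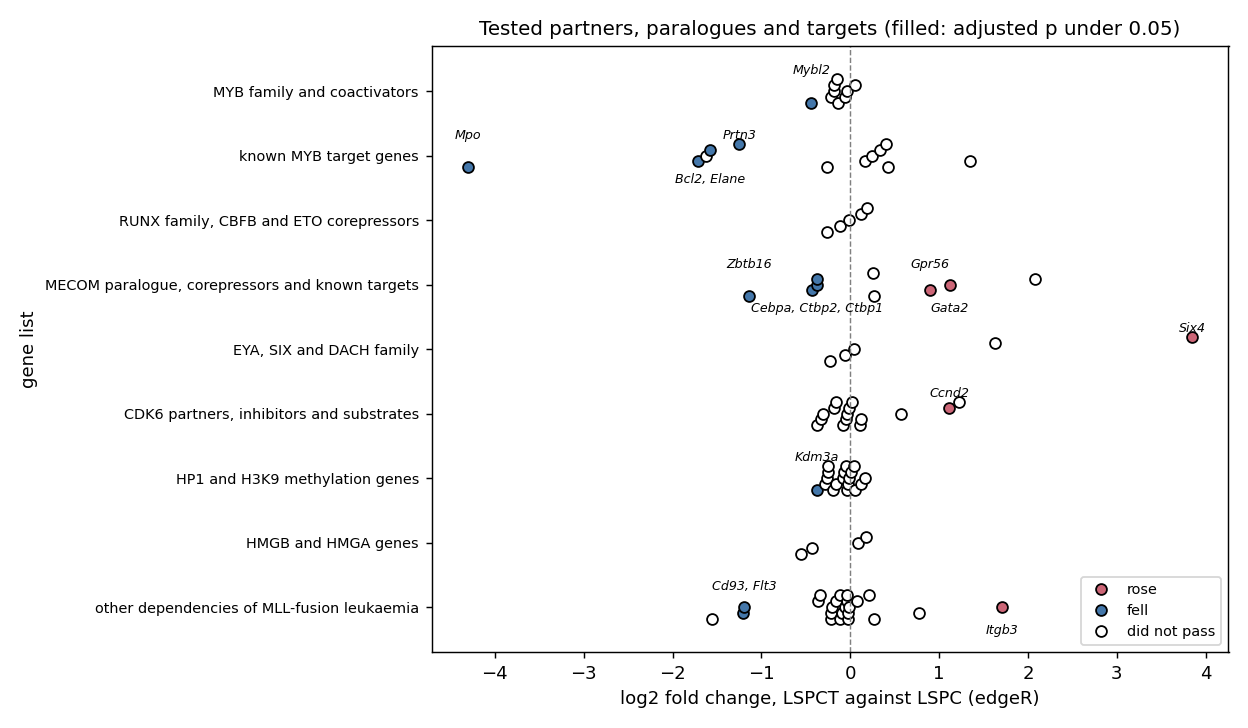
Log2 fold change (LSPCT against LSPC) of the genes tested in 9 lists of partners, paralogues, targets and other dependencies; red rose, blue fell and white did not pass at an edgeR adjusted p under 0.05. Six4 (3.85) lies farthest to the right and Mpo (-4.30) farthest to the left.

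Jmjd1c, a KDM3 family gene on which MLL-fusion leukaemia depends, was the regulator that rose. It stood at 157, 144 and 169 CPM in LSPC and 179, 212 and 233 CPM in LSPCT. The groups did not overlap, although LSPCT replicate 1 was close to LSPC replicate 3. The log2 fold change was 0.40 with an SE of 0.12, just past the threshold (edgeR adjusted p = 0.0480). Without LSPCT replicate 1 it was 0.51 (edgeR adjusted p = 0.00703). Leaving out any other library ended the call: the edgeR adjusted p was 0.150, 0.160 and 0.0604 without LSPC replicates 1, 2 and 3, and 0.121 and 0.124 without LSPCT replicates 2 and 3, at log2 0.32 to 0.47.

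RefSeq gives a pair of starts for Jmjd1c, and the outer one is shown to set its base composition beside that of Runx2, with each CpG in capitals. It covers the 250 bases before the start, 5′ to 3′, on the plus strand of chr10:67126838-67127087 in GRCm38.p6.

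Jmjd1c: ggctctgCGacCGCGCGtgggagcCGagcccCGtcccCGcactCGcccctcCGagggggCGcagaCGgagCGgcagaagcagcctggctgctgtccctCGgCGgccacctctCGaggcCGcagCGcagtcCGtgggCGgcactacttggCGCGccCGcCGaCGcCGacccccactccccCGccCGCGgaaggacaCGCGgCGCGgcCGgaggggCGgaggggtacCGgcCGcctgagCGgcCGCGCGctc

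This window has 40 CpG and 79.6% GC and no TGTGGT, whereas the window before the inner start has 11 CpG and 47.2% GC. The Myb promoter, with 40 CpG and 81.2% GC, resembles the outer one. Promoter entries were found for 7 of the 9 regulators, and Eya1 and Zfp521 had none. None of the 7 held the NF-kB consensus motif in the 250 bases before any of their starts, and 3.90% of all promoters did. No match says only that these letters are not in this window.

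The KDM3 family did not move together. Kdm3a was at 85.8, 86.2 and 77.4 CPM in LSPC and 72.6, 57.8 and 61.3 CPM in LSPCT (log2 -0.38, SE 0.11), a call close to the threshold (edgeR adjusted p = 0.0472). Kdm3a lost it with RLE factors (edgeR adjusted p = 0.0521), upper quartile factors (0.0776) or the stricter filter (0.0580), and without any library other than LSPCT replicate 1 (0.0753 to 0.170). Kdm3b stood at 240 to 243 CPM in LSPC and 214, 273 and 261 CPM in LSPCT (log2 0.05, 95% interval -0.19 to 0.28).

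Cbx5 was higher in LSPCT replicates 2 and 3 only. It stood at 265, 289.8 and 294 CPM in LSPC and 278, 381 and 364 CPM in LSPCT. LSPCT replicate 1 lay within the LSPC range. The log2 fold change was 0.27 (95% interval -0.02 to 0.56, edgeR adjusted p = 0.182), which did not pass. Without LSPCT replicate 1 it was 0.40 and passed (edgeR adjusted p = 0.0103), in a fit where 25.1% of all tested genes passed. The paralogues of Cbx5 did not pass. Cbx1 (HP1 beta) stood at 51.1 to 53.8 CPM in all libraries (log2 0.01, 95% interval -0.16 to 0.19) and Cbx3 (HP1 gamma) differed by 0.11 (95% interval -0.12 to 0.35). Of 18 tested HP1 and H3K9 methylation genes, Kdm3a alone passed in edgeR, where 17.2% of all tested genes did. The median log2 fold change of the 18 was -0.06. Hr, a KDM3 family gene with 1 to 23 counts, was left out by the filter. It was tested and fell without LSPCT replicate 1 (-3.21, edgeR adjusted p = 0.0193), and did not pass in the other edgeR settings that tested it (adjusted p 0.110 to 0.183). Kdm4d, a demethylase gene also left out by the filter, had 0 counts in each LSPC library and 6, 14 and 6 in LSPCT. With no filter, 1 of 20 genes of this list rose and 1 fell, where 12.4% of all genes tested passed. The H3K9 methyltransferase genes Suv39h1 (log2 -0.09), Setdb1 (-0.16), Ehmt1 (-0.05) and Ehmt2 (-0.03) did not pass.

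Hmgb3 had the smallest coefficient of variation of the 9 among LSPCT libraries, 4.90%. It stood at 89.8, 79.2 and 88.9 CPM in LSPC and 85.3, 82.5 and 77.4 CPM in LSPCT. The groups overlapped, with a log2 difference of -0.07 and a 95% interval of -0.28 to 0.13 (edgeR adjusted p = 0.629). Its more abundant relatives Hmgb2 (log2 0.17, edgeR adjusted p = 0.136) and Hmgb1 (0.09, edgeR adjusted p = 0.496) did not pass. None of 4 tested HMGB and HMGA genes passed in edgeR, where 17.2% of all tested genes did. Hmga1 passed without LSPCT replicate 1 (-0.55, edgeR adjusted p = 0.0492). Of the 50-base stretches in Hmgb3 transcripts, 25.02% also occur in transcripts of 14 other GENCODE genes, none of them among the genes counted. The sources used here do not give how reads with several positions were counted, which could change the level of Hmgb3. For the other 8 regulators this share was 5.66% or less.

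LSPCT replicate 1 lay at varying distances from the other tamoxifen libraries. Log2 CPM was taken after a prior count of 2 was added. On this scale LSPCT replicate 1 stood above the mean of LSPCT replicates 2 and 3 for Zfp521 (by 1.38), Runx2 (0.76), Myb (0.24) and Hmgb3 (0.09). It stood below them for Mecom (-5.30, at 0 counts and so dependent on the prior count), Cbx5 (-0.42), Cdk6 (-0.34), Jmjd1c (-0.31) and Eya1 (-0.30). For Runx2, Jmjd1c, Myb, Cbx5 and Hmgb3 this placed it nearer to the LSPC mean than the other LSPCT libraries, and for Cdk6 and Eya1 it was the farthest. For Cdk6 and Hmgb3, LSPCT replicate 2 lay nearer to replicate 1 than to replicate 3. Zfp521, Runx2 and Mecom differed by more than 0.5 from the mean of LSPCT replicates 2 and 3, Zfp521 and Mecom at low counts. Over all tested genes 24.998% differed by more than 0.5 in this way, in either direction. The macrophage marker sum was highest in LSPCT replicate 1, and its part was not tested.

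**Figure D5:**
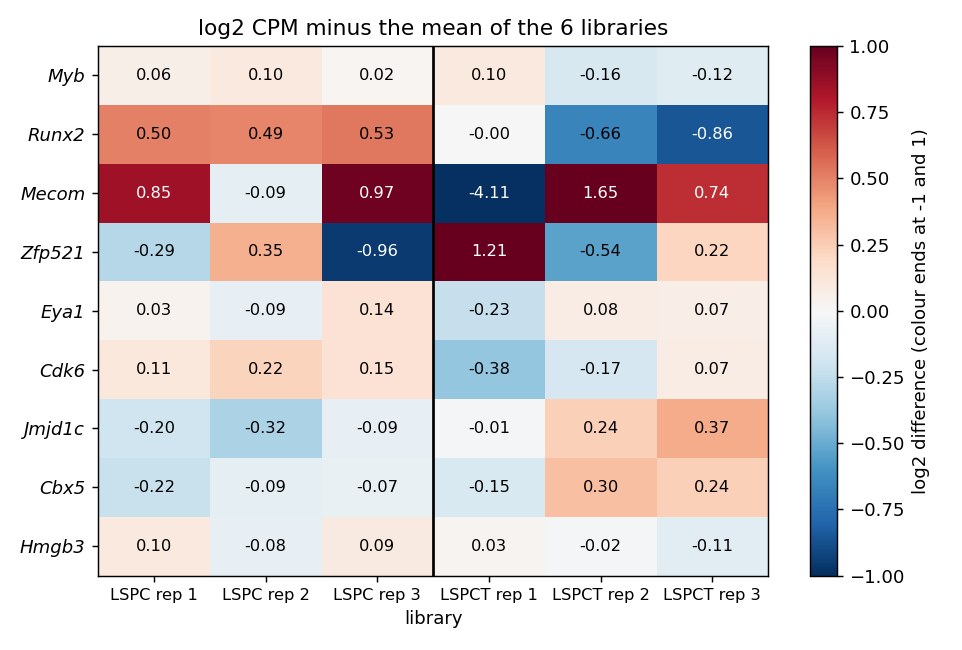
Log2 CPM of each regulator in each library minus its mean over the 6 libraries, printed in each cell, with colour ending at -1 and 1. Mecom had no count in LSPCT replicate 1, so the size of that cell depends on the prior count of 2. Runx2 is between 0.49 and 0.53 in all LSPC libraries and at -0.66 and -0.86 in LSPCT replicates 2 and 3, with LSPCT replicate 1 at 0.00.

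Genes with the pattern most like Runx2, by the root mean square difference of centred log2 CPM over the 6 libraries among 11042 other genes, were B4galt6 (0.08), a galactosyltransferase gene, Mtfp1 (0.08) and Cdh24 (0.09), a cadherin gene. B4galt6 went from 275, 266 and 267 CPM in LSPC to 167, 123 and 98.9 CPM in LSPCT. Jmjd1c was followed most closely by Ubash3b (0.03), a phosphatase gene, Oip5 (0.04) and Hsd17b12 (0.04). Ubash3b stood at 36.2, 31.7 and 39.1 CPM in LSPC and 40.9, 48.6 and 51.2 CPM in LSPCT. These are descriptions of 6 libraries in 2 groups.

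Of 23 other tested dependencies of MLL-fusion leukaemia, 1 rose and 2 fell, with a median log2 fold change of -0.10. This share of calls is near the 17.2% of all tested genes. The integrin gene Itgb3 was at 49.7, 54.7 and 43.4 CPM in LSPC and 101, 191 and 189.6 CPM in LSPCT (log2 1.71, SE 0.23, edgeR adjusted p = 0.00229). The growth factor receptor gene Flt3 went from 79.1, 104 and 86.1 CPM to 38.5, 33.0 and 46.1 CPM, and Cd93, a surface marker of leukaemia stem cells, from 334, 463 and 337 CPM to 159, 143 and 188 CPM. No LSPCT library overlapped LSPC for these 3 genes, as for 37.7% of all tested genes. They were named because they passed, so this is a description only. The H3K79 methyltransferase gene Dot1l (log2 -0.36, edgeR adjusted p = 0.0597) and Mcl1 (-0.35, edgeR adjusted p = 0.0619) were short of the threshold, which both passed in DESeq2 (adjusted p = 0.0191 and 0.0210). Dot1l passed without LSPCT replicate 2 (-0.47, edgeR adjusted p = 0.0255), and Id2, a helix-loop-helix inhibitor gene, without LSPC replicate 3 (1.58, edgeR adjusted p = 0.00703). Without LSPCT replicate 1, Mcl1 (-0.39, edgeR adjusted p = 0.0338), Hlf (-3.14, edgeR adjusted p = 0.0144) and the beta-catenin gene Ctnnb1 (0.26, edgeR adjusted p = 0.0452) passed too. Without that library 25.1% of all tested genes passed. The kinase gene Syk (log2 -0.02), the demethylase gene Kdm1a (-0.11) and Prmt1 (0.07) did not pass.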

How the data were processed

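RNA from 3 LSPC and 3 LSPCT libraries was compared, with groups taken from the sample titles. The authors deposited 1 file per library with whole-number counts per gene symbol, without normalization. The submitters' processing notes name build mm9 and the tools TopHat2 2.1.0, featureCounts, FastQC and DESeq2, with no role for each. The sources used here give no annotation, strand setting or treatment of multi-mapping reads.

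From these counts, TMM factors (0.986 to 1.007), filterByExpr (minimum count 10) and edgeR 4.0.16 quasi-likelihood tests (R 4.3.3) with group as the only term were run on all genes, with Benjamini-Hochberg adjustment and a threshold of 0.05. SE is the size of the log2 fold change divided by the root of F, and 95% intervals use the fit's degrees of freedom. The procedure was tested on simulated data. Symbols were matched to RefSeq promoters (GRCm38.p6) and GENCODE M21 exons. Alternatives were RLE, upper quartile or no factors, no filter, CPM above 1 in 3 libraries, DESeq2 1.42.0, limma 3.58.1 voom, glmTreat at 1.5-fold, a replicate block and leaving out each library.

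The 9 regulators and all lists were chosen with earlier results of these data known. From each list, up to 4 passing genes with the smallest p and the nearest paralogues were named, and for each passing regulator the 3 genes of most similar pattern (average log2 CPM of at least 1). Further genes were named after their values were seen. A pair of list genes is not reported here and is left out of the lists' counts and medians.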

Additional observations from a re-analysis of the deposited data

How the results depend on the processing

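The number of regulators that passed, 2 with the settings reported, was 0 when a change beyond 1.5-fold was asked for (glmTreat) and ranged from 0 to 3 when 1 library was left out. In all genes, 2189 passed (17.2%), 647 with glmTreat (5.08%) and 1029 to 3249 with 1 library left out. The fewest passed without LSPC replicate 1 (7.83%) and the most without LSPCT replicate 1 (25.1%). With glmTreat, Runx2 (-0.97, adjusted p = 0.171) and Jmjd1c (0.40) no longer passed. Leaving out 1 library gave log2 fold changes of -1.26 to -0.79 for Runx2, 0.32 to 0.51 for Jmjd1c, -0.42 to -0.19 for Cdk6, 0.18 to 0.40 for Cbx5, -0.12 to 0.04 for Eya1 (0.0427 without LSPCT replicate 1, 0.00802 without LSPC replicate 3) and -0.89 to 0.64 for Mecom. Mecom was -1.65 with limma voom. The causes were not tested. Myb, Zfp521 and Hmgb3 kept their direction and stayed short of the threshold under every alternative that gave a value. Zfp521 did not reach the stricter filter and has no value there.

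The deviations of same-numbered libraries had correlations of 0.12, -0.11 and 0.11 across genes for replicates 1, 2 and 3, and not every library correlated best with its own number. The labels do not say whether a number marks a shared batch or day, so no pairing was assumed. With the replicate number as a block, 1 regulator passed, Runx2. Jmjd1c was at 0.40 (edgeR adjusted p = 0.0530) and Mecom at -0.56. Mybl2 (0.0516), Ctbp1 (0.0503) and Kdm3a (0.0582) also missed the threshold with the block, whereas Ccnb1 passed (0.0323). Low counts limit the precision for Zfp521, at 5 to 23 counts per library.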
